A study of Mus musculus with 6 samples.

Results

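Gja3 and Gja5 are connexin genes, and both gave lower readings in Th17-polarized T cells without Irf4 than in cells with 1 copy of it. They are 2 of the 688 genes that can be named here, and they were read by 3 of the 22749 deposited probes: 1 probe for Gja3 and 2 for Gja5. Probes were assigned to them by symbol in the authors' deposited table of results, whose 828 probes were selected on the fold change and p-value of null against heterozygous cells in these same samples. The difference between genotypes is therefore described here for the connexin probes and is not tested.

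The 6 samples were 3 of Irf4 null (IRF4 -/-) and 3 of Irf4 heterozygous (IRF4 +/-) cells, all on a C57BL/6J background. Naive CD4+ CD62L-high CD25-negative T cells from spleen were cultured for 42 h on plate-bound anti-CD3 with anti-CD28, IL-6 (20 ng/ml), IL-23 (20 ng/ml), TGF-beta (1 ng/ml) and antibodies against IL-4 and interferon gamma. Each sample, labelled with Cy5, was hybridised to a 2-colour Agilent array beside a Cy3-labelled reference, an RNA pool of 11 mouse tissues, so each value is a log2 ratio of sample to pool. The labels do not say whether the 3 samples of a genotype came from separate animals, which part of Irf4 is deleted, or the age and sex of the mice, and the controls lack 1 copy of Irf4 themselves. These are bulk samples, in which fewer cells carrying a transcript and less of it per cell cannot be told apart.

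Connexins are membrane proteins that assemble into rings. A ring can open to the outside as a hemichannel, or dock with the ring of a neighbouring cell to form a gap junction channel that passes ions and small molecules such as second messengers. Gja3 encodes connexin 46, known chiefly from lens fibre cells, where mutations cause cataract. Gja5 encodes connexin 40, known from atrial muscle, the conduction system of the heart and arterial endothelium, and it has also been described in human lymphocytes. Gja1 encodes connexin 43, the most widely expressed member of the family and the one best known in T cells.

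The promoters of these genes are shown because 2 of the connexins were lower and 1, Gja1, was higher in null cells, and IRF4 is known to bind DNA through a GAAA core, often beside an ETS or an AP-1 factor. RefSeq promoter sequences of the build GRCm38.p6 were found for all 3 genes, with 2 start sites for Gja3. Each runs from 250 bases before to 50 bases after the start, 5′ to 3′ on the gene's strand. Capitals mark each GAAA core (TTTC on the other strand) and each AP-1 site TGANTCA.
Gja3 upstream start, chr14:57057981-57058280, minus strand: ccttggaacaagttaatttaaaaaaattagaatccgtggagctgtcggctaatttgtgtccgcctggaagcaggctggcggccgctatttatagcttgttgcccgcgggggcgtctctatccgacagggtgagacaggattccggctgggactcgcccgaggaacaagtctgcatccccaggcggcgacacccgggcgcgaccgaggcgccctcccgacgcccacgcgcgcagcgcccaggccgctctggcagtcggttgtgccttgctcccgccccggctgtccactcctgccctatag
Gja3 downstream start, chr14:57057674-57057973, minus strand: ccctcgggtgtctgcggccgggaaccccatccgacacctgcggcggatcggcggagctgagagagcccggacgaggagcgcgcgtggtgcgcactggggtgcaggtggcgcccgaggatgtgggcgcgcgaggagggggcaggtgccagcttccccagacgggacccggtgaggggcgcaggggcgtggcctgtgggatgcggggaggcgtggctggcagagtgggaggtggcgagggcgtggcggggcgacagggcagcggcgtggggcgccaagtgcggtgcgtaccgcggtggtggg
Gja5, chr3:97032152-97032451, plus strand: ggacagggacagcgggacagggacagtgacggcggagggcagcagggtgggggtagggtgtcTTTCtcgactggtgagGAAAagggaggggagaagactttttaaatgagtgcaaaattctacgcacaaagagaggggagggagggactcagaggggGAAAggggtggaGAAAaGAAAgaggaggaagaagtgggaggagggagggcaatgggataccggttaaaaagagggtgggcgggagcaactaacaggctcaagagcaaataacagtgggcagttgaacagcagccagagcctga
Gja1, chr10:56377050-56377349, plus strand: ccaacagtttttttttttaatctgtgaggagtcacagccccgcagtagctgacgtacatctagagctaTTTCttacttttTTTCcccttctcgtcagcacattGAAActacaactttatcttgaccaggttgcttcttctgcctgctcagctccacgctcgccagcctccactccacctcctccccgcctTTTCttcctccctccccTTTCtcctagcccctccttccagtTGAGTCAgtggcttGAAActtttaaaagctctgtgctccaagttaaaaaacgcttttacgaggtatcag

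No GAAA core stood in either Gja3 window, 5 stood in the Gja5 window and 6 in that of Gja1, while the median over 32851 promoters of this length was 3 and 89.2% held at least 1. The windows differed in base composition, with 63.3% and 76% G and C for Gja3, 55.7% for Gja5 and 47.7% for Gja1, against a median of 52.7%. Longer IRF motifs, searched on both strands, had no match in any of the 4 windows. These were the interferon-stimulated response element (in 3.44% of promoters), the ETS-IRF composite element (2.72%), and the AP-1-IRF composite elements with the 2 sites adjacent (0.125%) or spaced (0.119%). A lone AP-1 site, which is also part of both AP-1-IRF composites, occurred only in the Gja1 window of these 4 and in 7.81% of all promoters. A match or its absence describes letters in these windows and says nothing of binding.

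Irf4 itself, the disrupted gene, had a log2 ratio that averaged 0.67 ± 0.06 in null and 2.93 ± 0.08 in heterozygous samples (n = 3 each, SD), so Irf4 fell by 2.26 on the log2 scale (limma, Benjamini-Hochberg adjusted p = 0.00217 over all 22749 probes). Probes below an adjusted p of 0.05, the threshold used throughout, numbered 725, or 3.19% of all, of which 355 were lower and 370 higher in null cells. No other T cell or Th17 marker could be used to check the cell type except through the authors' selection: 2 of 15 T cell identity genes and 8 of 16 Th17-associated genes were named. That selection listed 3.64% of all probes. Cd247, a signalling chain of the T cell receptor, and Cd28, its costimulatory receptor, differed by -2.28 and -1.23 log2 units, with adjusted p-values from limma of 0.0926 and 0.139. Null values of exactly 0, whose origin is not known, stood in replicates 1 and 3 for Cd28 and in replicate 2 for Cd247. Of the 8 Th17-associated genes, 4 fell (Il9, Il10, Il22 and Il24, with limma adjusted p-values of 0.00741 to 0.0401 over 6 probes) and 4 did not pass. By comparison, 1.56% of all probes fell. With 1 sample left out, Il9 and Il10 passed in 5 of 6 fits, the 2 Il22 probes in 4 and 2, and the 2 Il24 probes in 3 and 1. The 4 that did not pass had differences of -2.99 for Il21, -2.45 for Ccr6, -1.59 for Il23r and, in the opposite direction, 1.09 for Il1r1 (limma adjusted p-values of 0.0571 to 0.124).

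Gja3 showed a full separation of the genotypes, with a caveat on the null side. Its probe, A_52_P17582, was listed at a log2 ratio of exactly 0 in null replicates 1, 2 and 3, and at 5.35, 5.56 and 6.01 in heterozygous replicates 1, 2 and 3. The heterozygous samples thus read 49.8-fold above the reference pool by their mean log2 ratio of 5.64 ± 0.33 (SD, n = 3), which was the 61st highest such mean of the 22749 probes. The authors' deposited table gives Gja3 a fold change of -49.8 and an unadjusted p-value of 8.19e-06. Because the 3 null values are 0, that fold is the heterozygous ratio to the pool itself, and it measures a null level only if a ratio of exactly 0 is a measurement.

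Gja5 was measured on every array by both of its probes. Probe A_52_P525317 had log2 ratios of 1.43, 1.77 and 1.67 in null replicates 1 to 3, and 5.48, 5.31 and 5.38 in heterozygous replicates 1 to 3. The lowest heterozygous sample stood 3.55 log2 units above the highest null sample. The means were 1.62 ± 0.17 in null and 5.39 ± 0.09 in heterozygous cells (SD, n = 3 each), which places null cells 3.08-fold and heterozygous cells 41.9-fold above the reference pool. The difference, null minus heterozygous, was -3.77 (SE 0.14, 95% interval -4.11 to -3.42 from the limma model), a 13.6-fold lower ratio in null cells. Unlike Gja3, no value of Gja5 was 0, and null cells still read above the tissue pool in 3 of 3 samples.

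The other Gja5 probe, A_51_P333216, gave the same order of genotypes with a smaller distance. Its log2 ratios were 0.41, 0.67 and 0.64 in null replicates 1 to 3, and 2.03, 1.40 and 1.85 in heterozygous replicates 1 to 3. The genotypes did not overlap, and the gap between the highest null and the lowest heterozygous sample was 0.73. The difference was -1.18 (SE 0.20, 95% interval -1.66 to -0.70), a 2.27-fold lower ratio in null cells.

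All 3 connexin probes were lower in null cells with no overlap of the groups, a pattern held by 17.7% of all probes, and all 3 are among the 1.88% listed by the authors as lower. Both facts follow from how the probes were chosen, and nothing is read from them. The authors' limits were a change over 2-fold and an unadjusted p-value under 0.05. Among probes lower in null cells at that p, the one just inside the fold limit was 2.002-fold lower and the one just outside 1.999-fold lower, so the smaller Gja5 difference of 2.27-fold lay near the limit.

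**Figure D1:**
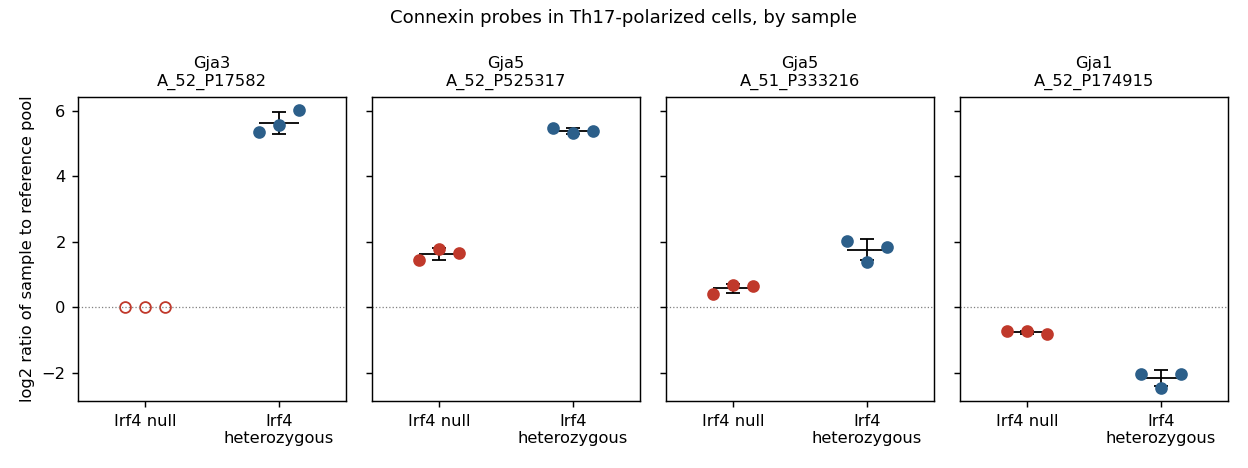
Log2 ratio of each sample to the reference pool for the Gja3 probe, the 2 Gja5 probes and the Gja1 probe, with null samples left and heterozygous samples right in each panel; points are samples, bars are the mean ± SD of 3, and open points are values of exactly 0, for which no mean is drawn. The 3 connexin probes of Gja3 and Gja5 sit lower in null cells, whereas Gja1 sits higher, at -0.82 to -0.73 against -2.45 to -2.02.

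By size, the connexins lay far apart among the falls of the authors' list. Gja3 had the second lowest difference of the 828 listed probes, at -5.64. Its null values are all exactly 0, so the size of that difference is the heterozygous mean. The rank holds only if those zeros are measurements. Gja3 stood between Abp1 at -5.64, a symbol that matches more than 1 current gene, and Bmerb1 at -4.67. Gja5 probe A_52_P525317 ranked 13, between Cd5l, whose product is a secreted scavenger-receptor protein, at -3.79 and Stard8 at -3.70. Gja5 probe A_51_P333216 ranked 293, between Susd3 and the potassium channel gene Kcnj3, each at -1.18.

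**Figure D2:**
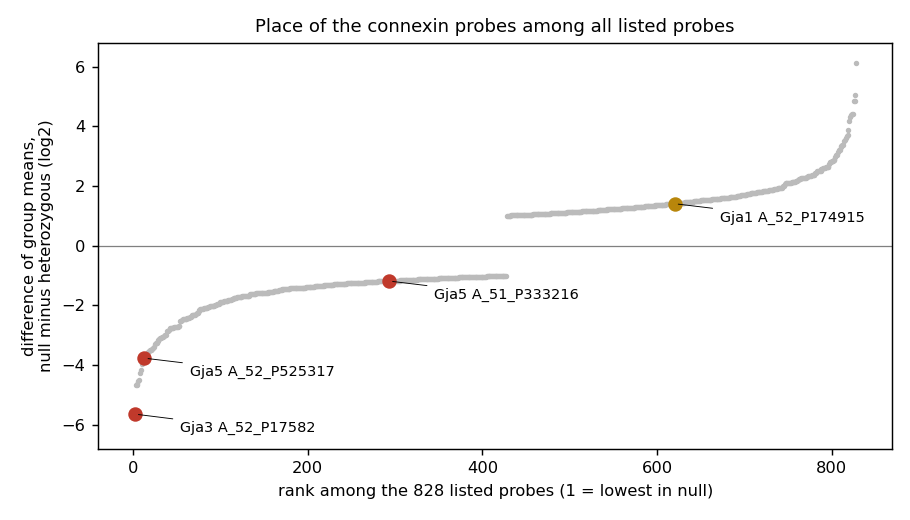
Difference of group means, null minus heterozygous on the log2 scale, for the 828 listed probes in rank order, with the 3 probes of Gja3 and Gja5 in red and Gja1 in yellow. Gja3, with all its null values at exactly 0, ranks 2 and the Gja5 probes rank 13 and 293 from the lowest. The empty band around 0 is the authors' 2-fold limit.

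The 2 Gja5 probes differed unequally between the genotypes. The ratio of A_52_P525317 exceeded that of A_51_P333216 by 1.02, 1.10 and 1.03 log2 units in null replicates 1 to 3, and by 3.46, 3.91 and 3.53 in heterozygous replicates 1 to 3. The null minus heterozygous differences of the probes lay 2.58 log2 units apart. Among the 95 named genes with 2 listed probes, the median of this gap was 0.26 and that of Gja5 was the fourth largest. A gene enters this set only if 2 of its probes passed the authors' limits. Gaps to a probe that fell short are therefore missing, and the rank holds only among these 95. The larger gaps, named after their values were seen, were those of Serpinb1b at 4.03, whose probes disagree in direction, Il1rn at 3.05 and Ifi209 at 2.60. Averaging both probes gives Gja5 a difference of -2.47, a value neither probe showed. RefSeq lists 2 transcripts for Gja5 and 3 for Gja3, and no source used here gives the part of the transcript that each probe reads.

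**Figure D3:**
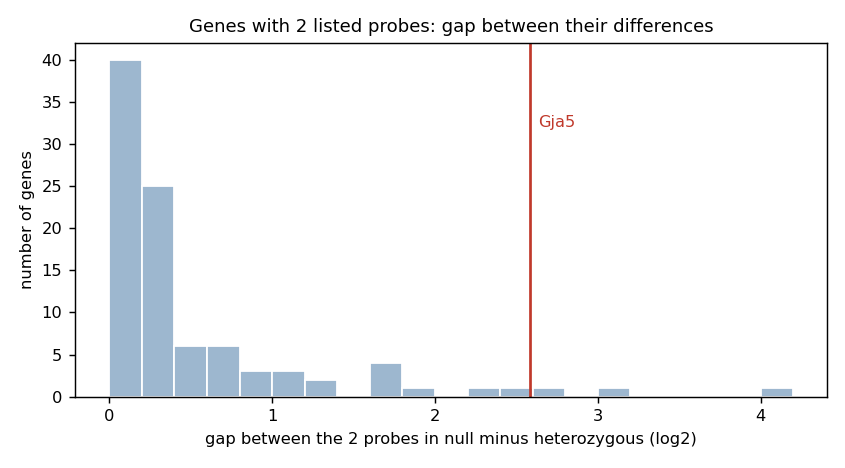
Histogram of the gap, in log2 units, between the null minus heterozygous differences of the 2 listed probes of a gene, over 95 genes; bars count genes and the red line marks Gja5. Most genes lie near the median of 0.26, and Gja5 at 2.58 is the fourth largest. Gaps to probes that fell short of the authors' limits are not included.

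The zeros of Gja3 belong to a pattern that ran through the whole table. Of 22749 probes, 2125 had at least 1 value of exactly 0, and every one of the 22749 had fewer than 2 such values in at least 1 genotype. Values within 0.01 of 0 but not equal to it numbered only 115 to 137 per array, against 153 to 1202 exact zeros. No source used here says how the zeros arose. Since no probe was at 0 on 2 or more arrays of both genotypes, every probe with 3 null zeros, such as that of Gja3, had at most 1 zero in heterozygous samples.

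The number of zeros varied by array within each genotype as well as between genotypes. Exact zeros over the whole table numbered 1202, 857 and 506 in null and 389, 153 and 737 in heterozygous replicates 1 to 3. Heterozygous replicate 3 thus had more than null replicate 3. The 828 listed probes had 51, 43 and 25 zeros in null and 5, 1 and 10 in heterozygous replicates 1 to 3, but were selected on the genotype difference. Over all probes, 77 were at 0 in all 3 null and in no heterozygous sample, and 9 showed the opposite. The heterozygous means of the 77 ran from -0.85 to 5.64 with a median of 0.50, and Gja3 was the highest of them, followed by Speer6-ps1 at 2.71. Of the 77, the 14 with a heterozygous mean above 1 are the 14 that the authors listed, while none of the 9 opposite probes was listed, and their null means reached at most 0.88. With 1 genotype at 0 the difference is the mean of the other. The authors' fold limit therefore allowed no others of either set to be listed, and nothing is read from this match.

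Some single zeros stood beside values far from 0 in the other samples of the genotype. For the 1349 probes with 1 null zero, the other 2 null samples averaged over 1 log2 unit away from 0 in 19.9% of cases, against 43.0% of probes with no null zero. For the 701 probes with 1 heterozygous zero the share was 13.8%, against 42.8%. The median distance from 0 of the other 2 samples was 0.54 for null zeros and 0.47 for heterozygous zeros, and 0.85 in either genotype for probes with no zero in its 3 samples.

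**Figure D4:**
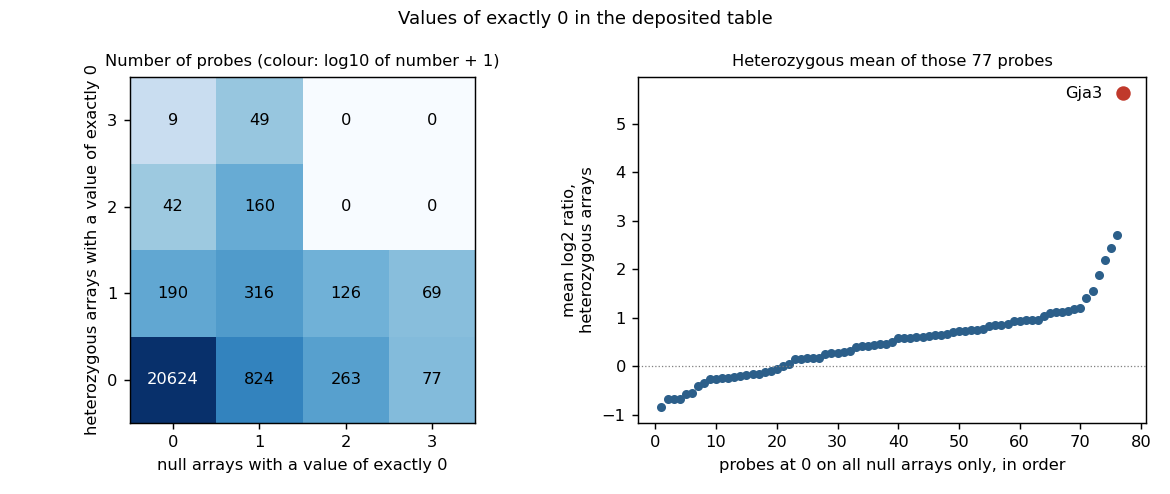
Left, number of probes by how many null arrays (horizontal) and heterozygous arrays (vertical) gave a value of exactly 0; right, mean log2 ratio on heterozygous arrays of the 77 probes that were 0 on all null and no heterozygous arrays, in order. No probe lies in the upper right block, and Gja3 at 5.64 stands above the next probe at 2.71.

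The listed genes that share the pattern of Gja3, at 0 in every null and no heterozygous sample, included receptors and a transcription factor. Gpr132, which encodes a receptor for lipids and protons, read 2.35, 2.43 and 1.81 in heterozygous replicates 1 to 3. Erg, an ETS transcription factor of endothelial and blood cells, read 2.56, 1.19 and 1.91, and Klri2, an NK cell receptor gene, 1.22, 3.95 and 2.16. The others were Speer6-ps1, Tdo2, A930005G22Rik, Fndc3c1, Snrpd1, Ttbk1, Olfr215, Scn7a, B230220B15Rik and C330024D21Rik, with heterozygous means between 1.04 and 2.71. Heterozygous values of Gja3 spread by an SD of 0.33, against 0.06 to 1.39 in these 13 genes.

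Named genes most like each connexin probe were found by Euclidean distance over the 6 log2 ratios, which joins level against the pool and difference in 1 measure. No probe of all 22749 lay within 1 log2 unit of the Gja3 probe or of Gja5 probe A_52_P525317, while 99 lay that near to Gja5 probe A_51_P333216.

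Nearest to Gja3 came Abp1 at a distance of 1.18, then Ildr1, which encodes a protein of tricellular junctions, at 1.85, Bmerb1 at 2.27, Ltb4r1, a leukotriene B4 receptor gene, at 2.27, and Cyp11a1 at 2.88. Of these 5, Abp1 had 1 null value of exactly 0, and Ildr1 and Bmerb1 had 2 each. Distances to Gja3 include its own null zeros, and so may rest in part on values that are not measurements. Nearest to Gja5 probe A_52_P525317 was Cyp11a1, which encodes the first enzyme of steroid synthesis, at 1.33. Its log2 ratios were 1.57, 1.30 and 1.18 in null and 4.77, 4.74 and 4.70 in heterozygous replicates 1 to 3. Cd5l followed at 1.38, Timd2, a TIM family receptor gene, at 1.60, Gpr15, a gut homing receptor gene, at 2.01, and Ltb4r1 at 2.08.

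Nearest to Gja5 probe A_51_P333216 were Gcnt1, which encodes an O-glycan branching enzyme, at 0.39, Bcl2l1, the gene of the survival factor Bcl-xL, at 0.49, and Galnt12, which encodes an enzyme that starts O-glycans, at 0.57. Ppp1r3b, a glycogen-targeting subunit of protein phosphatase, and Ccdc50 followed at 0.60 and 0.61. Each of these 5 and the Gja5 probe had its lowest heterozygous value in replicate 2, which choosing by distance over the same arrays favours. The nearest genes of the 2 Gja5 probes had no gene in common.

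**Figure D5:**
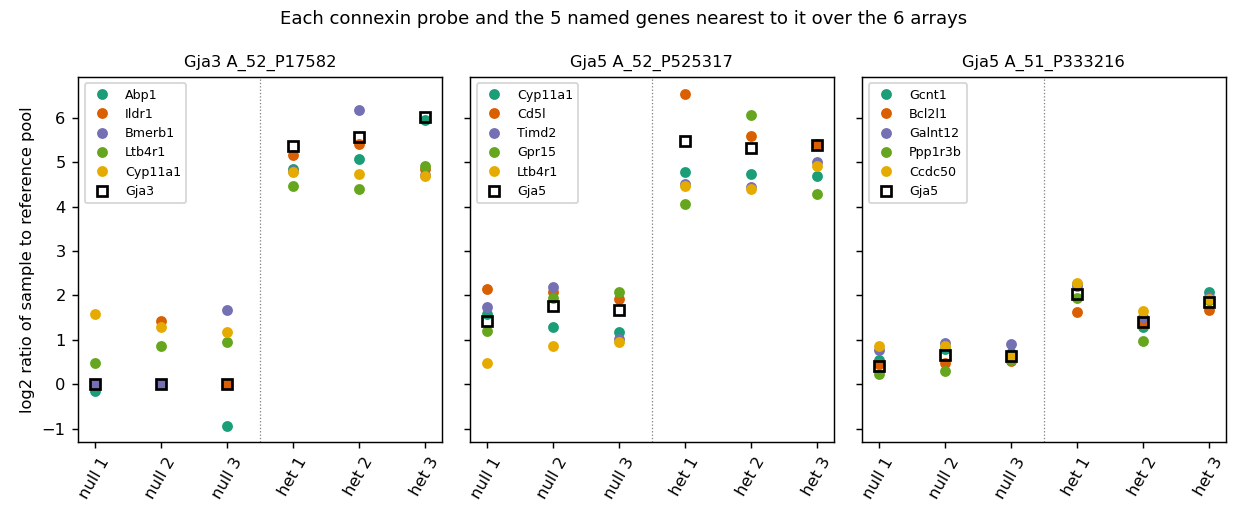
Log2 ratio to the reference pool on each array for the Gja3 probe and the 2 Gja5 probes (open squares) and for the 5 named genes nearest to each (coloured points), null arrays left of the dotted line and heterozygous arrays right. The genes lie at distances of 1.18 to 2.88 from Gja3, 1.33 to 2.08 from Gja5 probe A_52_P525317 and 0.39 to 0.61 from Gja5 probe A_51_P333216.

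Gja1 was the only other connexin gene in the authors' deposited table, and it differed in the opposite direction. Its log2 ratios were -0.73, -0.74 and -0.82 in null replicates 1 to 3, and -2.02, -2.45 and -2.04 in heterozygous replicates 1 to 3. Null cells approached the level of the reference pool more closely. Gja1 rose by a log2 fold change of 1.41 (SE 0.16, limma adjusted p = 0.0150), a 2.65-fold higher ratio in null cells. With 1 sample left out it passed in 3 of 6 fits, with an adjusted p of 0.0893 without null replicate 2, 0.0541 without heterozygous replicate 1 and 0.0723 without heterozygous replicate 3. Gja1, too, is named here only because it was selected for this difference.

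Of 34 genes listed as connexins, pannexins and other large-pore channels, 5 were named, and beside Gja3 and Gja5 1 fell and 2 rose, where 1.56% of all probes fell and 1.63% rose. Calhm6, which encodes a channel protein of the CALHM family, rose with log2 ratios of 1.17, 1.31 and 1.46 in null and -1.99, -2.13 and -2.94 in heterozygous replicates 1 to 3 (limma adjusted p = 0.00546, passing in 6 of 6 fits with 1 sample left out). Calhm2, of the same family, fell by 1.23 on the log2 scale (adjusted p = 0.0233, passing in 2 of 6 fits with 1 sample left out). The median difference of the 3 genes other than Gja3 and Gja5 was 1.41, against -1.01 over listed probes and -0.05 over all probes. The listed probes, 427 lower and 401 higher, held no change under the authors' fold limit, so their median lies at its edge. The remaining 29 genes of the list, pannexins among them, were not named, which happens alike when a gene has no probe and when its difference fell short of the authors' limits.

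Genes for proteins that bind connexins or regulate them were named in 2 of 22 cases, where 3.64% of all probes were listed. Both rose, as did 1.63% of all probes, and nothing is read from so few. Cav2, which encodes a caveolin, read far below the pool, at mean log2 ratios of -6.42 in null and -7.68 in heterozygous samples. It rose 2.39-fold (limma adjusted p = 0.0462). Both calls were lost whichever of the 6 samples was left out, and the limma adjusted p then was 0.0776 to 0.167 for Cav2.

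Hemichannels are known to release ATP, so genes of extracellular nucleotide signalling were listed as well: 4 of 28 were named, 2 rose, 0 fell and 2 did not pass, where 1.63% of all probes rose and 1.56% fell. With the probes of a gene averaged, the median difference of the 4 genes was 1.20, against -1.01 over listed probes and -0.05 over all probes. The listed median again lies at the edge of the authors' fold limit. Nt5e, which encodes the AMP-hydrolysing enzyme CD73, rose on probe A_51_P156740 with a log2 fold change of 1.86 (limma adjusted p = 0.0320), and its other probe had 1.20 (adjusted p = 0.0604). Enpp1, which encodes an ATP-hydrolysing enzyme, rose on probe A_51_P231499 by 1.07 (adjusted p = 0.0253), and its other probe had 1.05 (adjusted p = 0.0503). With 1 sample left out, each Nt5e probe passed in 0 of 6 fits and each Enpp1 probe in 1. Enpp3 had 1.34 (adjusted p = 0.108), and Adora3, an adenosine receptor gene, had -1.28 (adjusted p = 0.103). Of 22 ion channel genes known from T cells, 2 were named, of which 1 fell and 1 rose. Ano1, a calcium-activated chloride channel gene, rose 33.1-fold (adjusted p = 0.00546) and passed in 6 of the 6 fits with 1 sample left out. Its mean log2 ratio was -0.54 in null and -5.58 in heterozygous samples, below the pool in both.

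Short marker lists stood for the tissues in which Gja3 and Gja5 are best known. None of 16 endothelial, 11 lens, 11 atrial muscle and 9 stromal marker genes on them was named, whether for want of a difference or of a probe, so their levels are not known and their part in the connexin values was not tested. Genes outside these lists that endothelium also expresses, such as Erg, were in the authors' deposited table. Among markers of other blood cells, 2 of 10 B cell genes were named (Sdc1 rose, Cd24a fell), 2 of 14 myeloid genes (Cd86 fell, Itgax did not pass) and 5 of 11 CD8 T and NK cell genes (Nkg7 rose, Klre1 fell, and Cd8a, Eomes and Prf1 did not pass), where 3.64% of all probes were listed, 1.56% fell and 1.63% rose. Limma adjusted p-values were 0.0209 for Sdc1, 0.00645 for Cd24a, 0.0209 and 0.0261 for the Cd86 probes, 0.0333 for Klre1 and 0.0189 for Nkg7 probe A_52_P24447, while its other probe had 0.0816. With 1 sample left out, Cd24a passed in 6 of 6 fits, Klre1 in 1, and the passing probes of Sdc1, Cd86 and Nkg7 in 2 each. Cd8a, Eomes and Prf1 were higher in null cells by 1.29, 1.41 and 2.36 log2 units (limma adjusted p-values of 0.113 to 0.136). Of the 5 CD8 T and NK cell genes, 4 were thus higher and 1, Klre1, was lower. Klre1 had a value of exactly 0 in null replicate 2, and Eomes in heterozygous replicate 3. With zeros treated as missing, the limma adjusted p of Klre1 was 0.0753. The part of any of these blood cells in the connexin values was not tested.

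Genes next to the connexins in the genome were absent from the list. Gja3, on chromosome 14, has the connexin genes Gjb2 and Gjb6 as its next protein-coding neighbours on one side, and Gja5 lies on chromosome 3. Of the 5 protein-coding neighbours on each side, 0 of 10 around Gja3 and 0 of 10 around Gja5 were named by the authors, where 3.64% of all probes were listed. A neighbour without a probe would look the same as one whose difference fell short of the authors' limits.

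Leaving out 1 sample gave differences of -5.78 to -5.45 for Gja3, -3.84 to -3.67 for Gja5 probe A_52_P525317 and -1.36 to -1.05 for Gja5 probe A_51_P333216. With all 3 null values at 0, the Gja3 difference cannot move when a null sample is left out, and the probes were listed for a difference large against its spread, so these ranges are a description. The heterozygous SD of 0.09 of Gja5 probe A_52_P525317 was larger than or equal to that of 19.2% of probes, and its null SD of 0.17 to that of 33.2%. The heterozygous SD was at the 73.0 percentile for Gja3 and at the 71.8 percentile for Gja5 probe A_51_P333216. With 3 arrays per genotype, precision is limited by their number.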

How the data were processed

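Per the labels' protocols, total RNA of each sample was labelled with Cy5 and co-hybridised with a Cy3-labelled common reference, with no dye swap. The submitters' processing notes name Agilent Feature Extraction 10.7 and Partek. For 22749 probes the deposited values are log2 ratios against the reference, called normalized per the file headers. The direction rests on the dye labels. The base of the logarithm was settled by setting null minus heterozygous means against the fold changes in the authors' deposited table, which on the log2 scale differed by at most 1.03e-05. Intensities, background flags and scan batches were not used here, so no dim probe could be filtered. No 2 arrays were identical. The free-text description of heterozygous replicate 3 is ambiguous, and its title and genotype fields set its group.

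The authors' deposited table gives a signed fold change and an unadjusted p-value per probe from a 1-way ANOVA in Partek Genomic Suite 6.6, per the file headers, for 828 probes, 816 of them with a symbol. Old symbols were updated through RefSeq names (GRCm38.p6), and 113 of 689 changed.

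Null and heterozygous samples were compared probe by probe with limma 3.58.1 (lmFit, eBayes) in R 4.3.3 without covariates, with Benjamini-Hochberg adjustment over all probes. This step was tested on simulated data. For the connexin probes only differences and 95% intervals from the model are given. Where samples were not separate cultures or animals, p-values measure only technical spread.

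The members and lists were chosen with earlier results of these data known. Named were Gja3, Gja5 and Irf4, the 5 named genes nearest to each connexin probe, genes at 0 in all samples of 1 genotype only, rank neighbours, named members of the pathway lists, up to 4 of each marker list (the CD8 T and NK list is given with all 5 and the Th17 list with all 8, choices made after their values were seen), and listed genomic neighbours. The values of a few genes that this rule takes are not reported here. A list gene counts as passing where at least 1 of its probes did. Alternatives were centring, quantile normalization, scaling, zeros as missing, a replicate block, leaving out samples, other tests and limits, averaged probes, and other measures of likeness.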

Additional observations from a re-analysis of the deposited data

How the results depend on the processing

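The connexin differences, whose sign and size chose the probes, moved by less than 1 SD between replicates under centring, quantile normalization, scaling of array spread and leaving out 1 sample, which is no sign of stability. The replicate block cannot move a difference between balanced groups. With zeros as missing Gja3 has no null value and could not be given, while both Gja5 probes were unchanged. The ranges over leaving out 1 sample were -5.78 to -5.45 for Gja3 and -3.84 to -3.67 and -1.36 to -1.05 for the Gja5 probes.

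The 725 probes past the limma threshold became 301, 70 and 398 without null replicate 1, 2 or 3, 147, 360 and 81 without heterozygous replicate 1, 2 or 3, and 1535 at an adjusted p under 0.1. Other settings gave 484 to 856. With the replicate block 76 probes passed and Irf4 kept an adjusted p of 0.0428. Of 65 probes taken by the naming rule beside Irf4 and the probes of Gja3 and Gja5, 39 passed, that of Gja1 among them. Of the 39, 30 lost the call with the block and 11 to 28 with 1 sample left out. None of the 65 reversed under any setting run. Over probes, deviations from the group means correlated at 0.097, -0.013 and -0.037 between samples of the same number. Such values over all probes cannot show whether samples of the same number shared an animal or a batch.

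With Pearson correlation in place of distance, 1 of the 5 nearest genes was shared for each of the 3 connexin probes. Of the 5 nearest among all probes, 5 were named for Gja3, 5 for Gja5 probe A_52_P525317 and 3 for Gja5 probe A_51_P333216. Counting values under 0.01 as zeros gave 78 probes in place of 77. The cause of these shifts was not tested, but fewer samples or a block also leave fewer degrees of freedom.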
